A study of Mus musculus with 6 samples.

Results

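Collagen chains were the genes whose symbol in the array annotation is Col, digits, a, digits. By this rule 42 genes were found among the 18193 genes measured, with 82 probe sets between them. They comprised 11 fibrillar chains, the 6 chains of basement membrane type IV collagen and 25 chains of other classes. RNA came from CT26 cells, a colon carcinoma line of BALB/c mice. In the control group of 3 samples the cells carried the empty vector pU6-m3. In the shSep15 group of 3 samples they carried that vector with a hairpin against Sep15, a selenoprotein of the endoplasmic reticulum now named Selenof. The labels do not say whether the cells were clones or pools, and 1 hairpin was used, so effects of Sep15 and of the construct cannot be told apart. Its 19 bases, shown because they define the knockdown, follow.
Sep15 hairpin: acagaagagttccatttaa

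Collagens are secreted proteins in which chains wind around one another in a helix. Fibrillar collagens form the load-bearing fibres of connective tissue, type IV collagen forms the sheet of the basement membrane, and the remaining classes decorate fibres, build microfilaments or span the cell membrane. Inside the endoplasmic reticulum the chains are hydroxylated, glycosylated and folded with the help of dedicated enzymes and chaperones. Outside the cell they are trimmed and cross-linked. In tumours, collagens are known as part of the matrix through which cancer cells move, and both stromal and cancer cells can make them.

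Each array gave 1 log2 value per probe set, and a gene took the value of its brightest probe set over the 6 arrays. Array medians lay between 5.83 and 5.87. Selenof read 12.35 to 12.44 in control cells and 9.34 to 9.59 in shSep15 cells, 13.2% of the control signal. The background level, 6.02, was set from 80 probe sets of olfactory and vomeronasal receptors, as the 95th percentile of their means. Genes are called near background here when neither group mean exceeds it. Of 10 epithelial markers, 4 were above background in control cells, and Cdh1, Krt19, Vil1, Cdx2, Cldn4 and Cldn7 were near background. Of 12 mesenchymal markers, 8 were above background, while Lum, Thy1, Fap and Postn were not. The mean log2 value of the epithelial list was 5.78 to 5.96 in control and 5.33 to 5.53 in shSep15 arrays. That of the mesenchymal list was 6.95 to 7.00 and 6.65 to 6.75. Pdgfrb, Dcn, Krt18 and Krt20 fell, and Pdgfra and Vim rose. Of 4 endothelial markers Kdr alone was above background (list means 5.29 in control and 5.29 to 5.33 in shSep15 arrays); Pecam1, Cdh5 and Tek were near background. Of 6 leukocyte markers measured, 3 were above background in control cells, Ptprc was not, and Cd68 and the near-background Itgam fell (list means 5.82 to 6.06 and 5.61 to 5.80). Of 4 cartilage and bone markers measured, Sox9 alone was above background, and it fell. The part of these markers in the collagen results was not tested. In RNA of whole cultures, fewer cells that make a chain and less RNA per cell cannot be told apart. The number of arrays, 3 per group, limits the precision.

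Promoter sequence is shown for 5 chains whose neighbours or partners are described in the results: the type I chain Col1a2 and the type III chain Col3a1, the head-to-head pair Col4a5 and Col4a6, and Col4a2, which starts beside Col4a1. Each is the 250 bases before the transcript start that the RefSeq promoter table takes for the gene, 5′ to 3′ on the strand of the gene, on build GRCm38.p6. For Col4a5 and Col4a6 this start lies inside the outermost bounds of the annotated gene, so their windows run past those bounds. The Col4a2 window lies wholly inside the bounds of Col4a1, which runs on the opposite strand. Of the 42 chains, 33 had a promoter there. Capitals mark 3 short motifs searched on both strands: the TATA box (TATAAA), the CCAAT box (CCAAT) and the GC box (GGGCGG). No motif overlaps another in these 5 sequences.
Col1a2, chr6:4505368-4505617, plus strand: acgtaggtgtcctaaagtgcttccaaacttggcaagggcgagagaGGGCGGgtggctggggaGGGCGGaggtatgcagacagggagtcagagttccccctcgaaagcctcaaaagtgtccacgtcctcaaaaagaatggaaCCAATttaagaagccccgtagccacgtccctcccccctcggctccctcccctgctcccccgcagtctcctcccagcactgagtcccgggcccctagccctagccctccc
Col3a1, chr1:45311288-45311537, plus strand: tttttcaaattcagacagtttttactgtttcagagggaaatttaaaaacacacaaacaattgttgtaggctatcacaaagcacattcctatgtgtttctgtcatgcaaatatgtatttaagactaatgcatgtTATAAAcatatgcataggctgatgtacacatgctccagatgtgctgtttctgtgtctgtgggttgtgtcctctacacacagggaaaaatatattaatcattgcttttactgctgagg
Col4a5, chrX:141475169-141475418, plus strand: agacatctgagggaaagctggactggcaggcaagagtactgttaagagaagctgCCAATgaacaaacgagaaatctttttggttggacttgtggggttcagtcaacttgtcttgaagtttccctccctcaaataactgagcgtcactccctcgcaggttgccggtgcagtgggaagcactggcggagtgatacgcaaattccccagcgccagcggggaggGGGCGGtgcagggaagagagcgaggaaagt
Col4a6, chrX:141474077-141474326, minus strand: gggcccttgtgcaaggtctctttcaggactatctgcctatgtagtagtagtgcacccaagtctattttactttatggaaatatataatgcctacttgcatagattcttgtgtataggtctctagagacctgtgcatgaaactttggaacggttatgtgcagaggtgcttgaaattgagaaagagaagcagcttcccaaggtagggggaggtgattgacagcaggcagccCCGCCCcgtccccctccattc
Col4a2, chr8:11312555-11312804, plus strand: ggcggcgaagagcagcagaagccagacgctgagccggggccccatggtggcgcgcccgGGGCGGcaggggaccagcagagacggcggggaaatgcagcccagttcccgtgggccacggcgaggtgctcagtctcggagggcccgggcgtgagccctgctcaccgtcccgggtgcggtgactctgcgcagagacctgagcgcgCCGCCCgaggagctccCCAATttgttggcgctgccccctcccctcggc

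The promoters of the oppositely changed chains Col1a2 and Col3a1 differ in these letters. Col1a2 holds a CCAAT box and 2 GC boxes, at a G and C content of 62.0%. Col3a1 holds a TATA box, which begins 117 bases before the start, and neither of the others, at 35.2%. The median G and C content was 52.4% over all promoters and 59.0% over those of collagen chains. Among all 32851 promoters of the table, 12.4% hold the TATA box, 33.8% the CCAAT box and 32.7% the GC box in this window. Among the 36 promoters of collagen chains the counts were 5, 13 and 21. Of the other called chains that rose, Col4a5 holds CCAAT and GC boxes, and Col8a1 GC boxes only. Of those that fell, Col6a1 and Col20a1 hold none of these motifs. Col18a1, which also fell, holds CCAAT and GC boxes at a promoter and none at another. A match describes the letters only, and its relation to the direction of change was not tested.

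The collagen genes did not move together when Sep15 was knocked down. Type I collagen rose in both of its chains, while type III collagen, its usual partner in fibres, fell. Among basement membrane chains Col4a5 rose. Col18a1, Col20a1 and Col6a1 fell and Col8a1 rose. In all, 5 of the 42 chains were higher and 4 lower in shSep15 cells, where limma's adjusted p had to be under 0.05. That is 21.4% of the chains, against 25.0% of all genes (12.2% higher and 12.8% lower). Of the 21 chains above background, 4 rose and 4 fell, or 38.1%, against 39.2% of all genes above background (19.2% higher and 20.0% lower). The share of collagens changed was thus near that of the array as a whole. The median log2 difference of the 42 chains was 0.01, as was that of all genes, and the median absolute difference was 0.12, against 0.16. Without shSep15 replicate 3, 3 chains were higher, and the calls of Col5a2 and Col8a1 were lost.

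**Figure D1:**
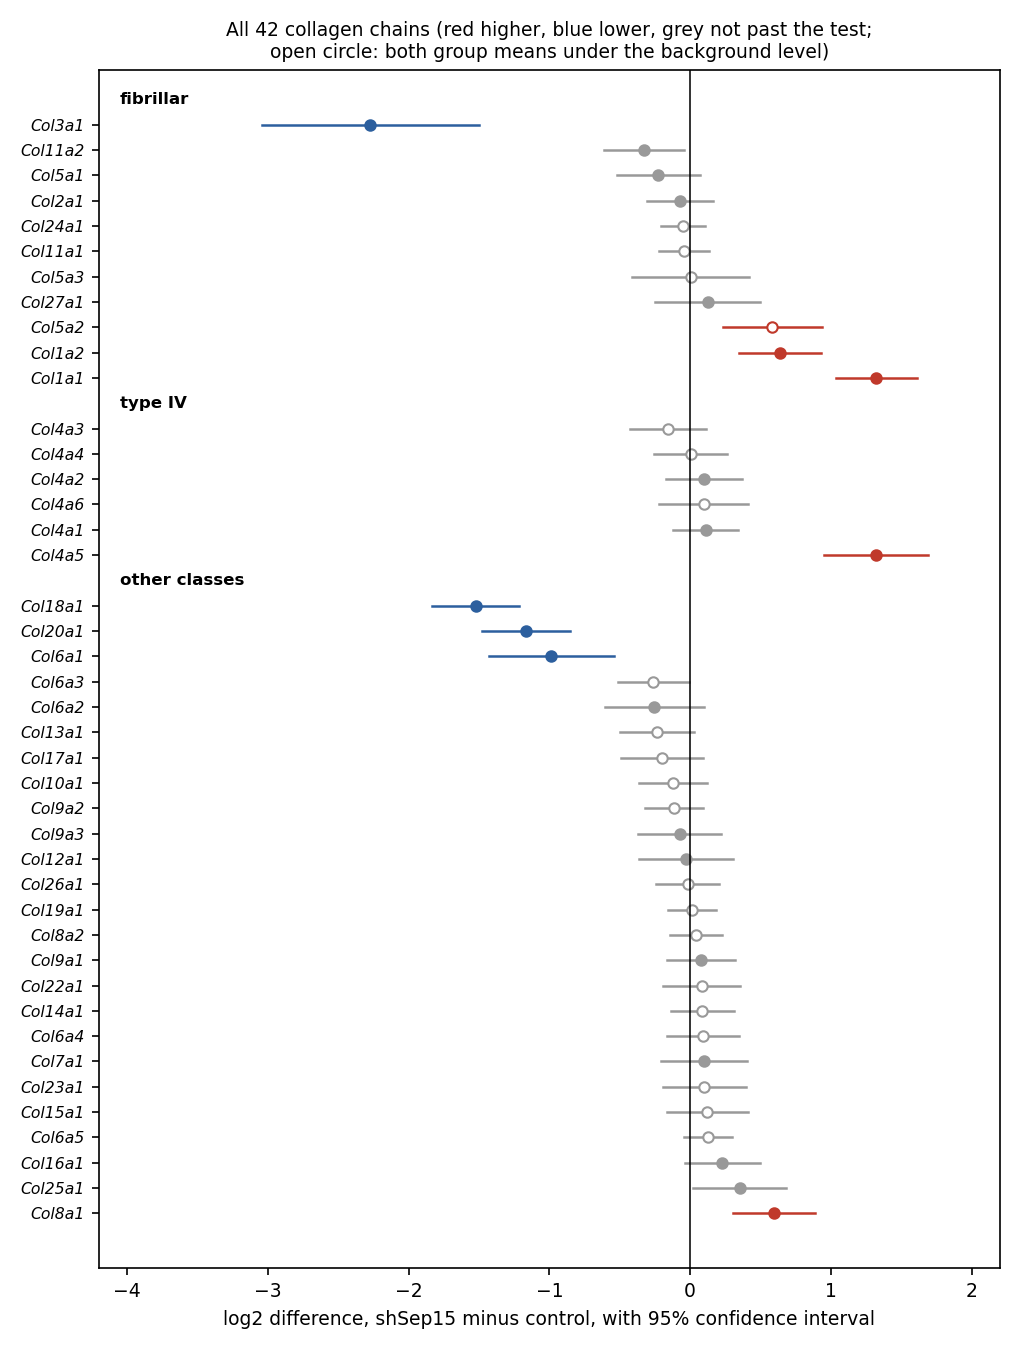
Log2 difference between shSep15 and control cells for each of the 42 collagen chains, with its 95% confidence interval from limma, by class. Filled circles are chains above background in at least 1 group; red chains were called higher, blue chains lower. Col3a1 lies lowest at −2.27, and Col1a1 and Col4a5 lie highest at 1.32.

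By class, 4 of 11 fibrillar chains (36.4%), 1 of 6 type IV chains (16.7%) and 4 of 25 other chains (16%) were called, against 25.0% of all genes. The fibrillar count includes Col5a2, which was near background. Among chains above background, 3 of 7, 1 of 3 and 4 of 11 were called, against 39.2% of all genes above background. The medians over all chains of each class were −0.05, 0.10 and 0.01 on the log2 scale, close to 0 in each class. Differences between classes were not tested. The chromosomes that carry called chains had medians of −0.08 to 0.00 over their genes above background. Chromosomes 3, 4 and 17 had medians of 0.26, 0.16 and 0.16, and chromosome 18 had −0.30. Of the uncalled chains above background, Col25a1 lies on chromosome 3, Col16a1 and Col27a1 on 4 and Col11a2 on 17. The part of the chromosomes in the chain results was not tested.

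**Figure D2:**
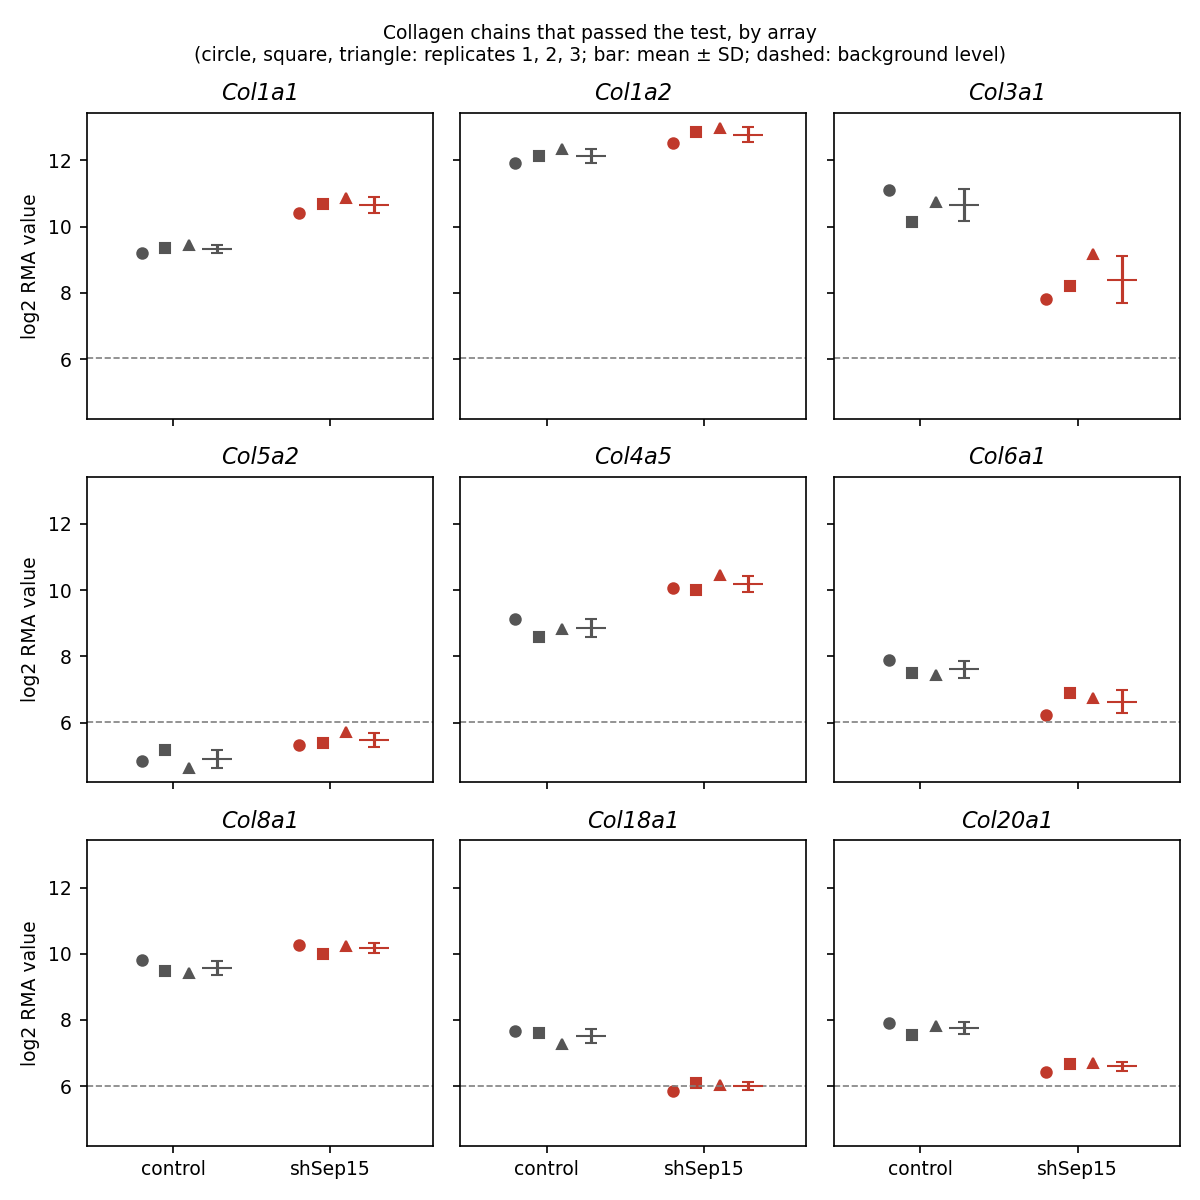
Log2 RMA value on each array of the 9 chains that passed the test; grey is control, red is shSep15, symbols are replicates, bars are the mean with its SD (n = 3) and the dashed line is the background level. In all 9 the groups are separate, and Col5a2 lies under the background level throughout.

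Among the fibrillar chains, Col1a1 encodes the first chain of type I collagen, the main fibre of bone, skin and tumour stroma. It read 9.20, 9.34 and 9.45 in control cells and 10.41, 10.68 and 10.88 in shSep15 cells. Every shSep15 array lay above every control array. The log2 difference was 1.32 (SE 0.13, limma adjusted p = 0.000117), a 2.5-fold rise. Its dimmer probe set rose by 1.23 (SE 0.15, limma adjusted p = 0.000465), a size that is not exact because the control mean, 5.55, is under background.

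Col1a2 encodes the partner chain of the same molecule. It read 11.93, 12.14 and 12.36 in control cells and 12.53, 12.85 and 12.97 in shSep15 cells, again without overlap. The difference was 0.64 (SE 0.13, limma adjusted p = 0.00669), a 1.56-fold rise on the brightest probe set. Its other probe sets gave larger rises, 1.76 (SE 0.18) and 0.89 (SE 0.12). The size of the rise of 0.89 is not exact, because the control mean of that probe set, 5.30, is under background. The mean of the Col1a2 probe sets rose by 1.10, so the size of the change of Col1a2 depends on the probe set taken. On the brightest probe sets Col1a1 rose by 0.69 more than Col1a2, with no overlap of the arrays. The rise of 1.76 on another Col1a2 probe set exceeds that of either Col1a1 probe set, so the order of these chains is not settled.

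Col3a1 encodes type III collagen, which is laid down beside type I in skin, vessels and other extensible tissue. It read 11.11, 10.15 and 10.74 in control cells and 7.80, 8.20 and 9.18 in shSep15 cells. All shSep15 arrays were lower than all control arrays, and replicate 3 of shSep15 was the highest of its group. The difference was −2.27 (SE 0.34, limma adjusted p = 0.00136), a 4.83-fold fall and the largest change of any chain. Its SE was also the largest among the 9 chains that passed. The second probe set of Col3a1 was near background, at 4.89 and 4.60, and gives no reading. The mean of both probe sets fell by 1.28.

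The pair of type I and type III was compared within arrays. The log2 value of Col1a1 minus that of Col3a1 was 3.59 higher in shSep15 than in control arrays (SD 0.55 in control and 0.49 in shSep15, n = 3 each, exact two-sided permutation p = 0.1). With 3 arrays against 3 no smaller p can be had. Col1a1 was higher and Col3a1 lower in every shSep15 array, so this separation and its p follow from the single chains. They add no support to them. Over the 8 chain pairs compared in this way, chosen after the values were seen, 7 gave this p, or 0.114 when adjusted over the 8. Of these pairs, 2 hold a chain near background and their differences are not given.

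Type V chains are known to start fibres of type I. Col5a1 was above background and read 10.48, 10.16 and 10.61 in control cells and 10.00, 10.32 and 10.25 in shSep15 cells. These groups overlap. The difference of −0.23 did not pass the test (95% confidence interval −0.52 to 0.07, limma adjusted p = 0.313). Its other probe sets gave −0.04 and −0.08. Col5a2 read 4.86, 5.18 and 4.64 in control cells and 5.31, 5.40 and 5.72 in shSep15 cells, all under the background level. The groups do not overlap and the difference of 0.58 passed the test (SE 0.16, limma adjusted p = 0.0275), but at this level it is no reading of a change of RNA. The call of Col5a2 was lost in 4 of the 6 fits that each left out 1 array (without control 1 or 3, or shSep15 2 or 3). Col5a3 was near background as well.

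Col3a1 and Col5a2 are neighbours on chromosome 1, with no other measured gene between them. Col3a1 fell, and Col5a2 was too dim to be set against it. The median of the genes above background on this chromosome was −0.08.

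Of the other fibrillar chains, Col11a2, Col2a1 and Col27a1 were above background in at least 1 group and did not pass. Col11a2, a chain of cartilage fibres, averaged 6.03 in control cells, barely over the background level, and differed by −0.33 (limma adjusted p = 0.114). It passed when control replicate 2 was left out. Col27a1 differed by 0.13 and the cartilage chain Col2a1 by −0.07. Col11a1 and Col24a1 were near background.

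Among type IV chains, Col4a1 and Col4a2 are the chains of the basement membrane of nearly every tissue, and both were clearly expressed. Col4a1 read 10.11, 9.90 and 9.97 in control cells and 9.94, 10.21 and 10.16 in shSep15 cells. Col4a2 read 9.10, 9.04 and 9.04 against 8.93, 9.33 and 9.21. For both chains the groups overlap. The differences were 0.11 (95% confidence interval −0.12 to 0.34, limma adjusted p = 0.561) and 0.10 (−0.17 to 0.37, limma adjusted p = 0.675). The second probe set of Col4a1 gave −0.15, and the mean of its probe sets −0.02, so that the sign for Col4a1 is not settled. The starts taken for both genes in the promoter table lie 21 bases apart on opposite strands. Within arrays their changes differed by 0.01 (SD 0.08 in control and 0.06 in shSep15, n = 3 each, exact two-sided permutation p = 0.8).

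Col4a5 encodes a chain that is best known from the kidney filter, where its loss causes Alport syndrome. It read 9.13, 8.59 and 8.84 in control cells and 10.06, 10.02 and 10.46 in shSep15 cells. Each shSep15 array was above each control array. The difference was 1.32 (SE 0.16, limma adjusted p = 0.000454), a 2.5-fold rise. The other probe set of Col4a5 rose by 0.87 (SE 0.20, limma adjusted p = 0.014).

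Col4a6, whose start in the promoter table lies 1343 bases away on the opposite strand, and which can assemble with Col4a5, was near background. It averaged 5.71 in control and 5.81 in shSep15 cells (difference 0.10, limma adjusted p = 0.723). At that level the change of Col4a6 cannot be set against that of Col4a5. Both lie on the X chromosome, whose genes above background had a median of −0.05, with 107 lower and 64 higher. The kidney filter chains Col4a3 and Col4a4, known partners of Col4a5, were near background.

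**Figure D3:**
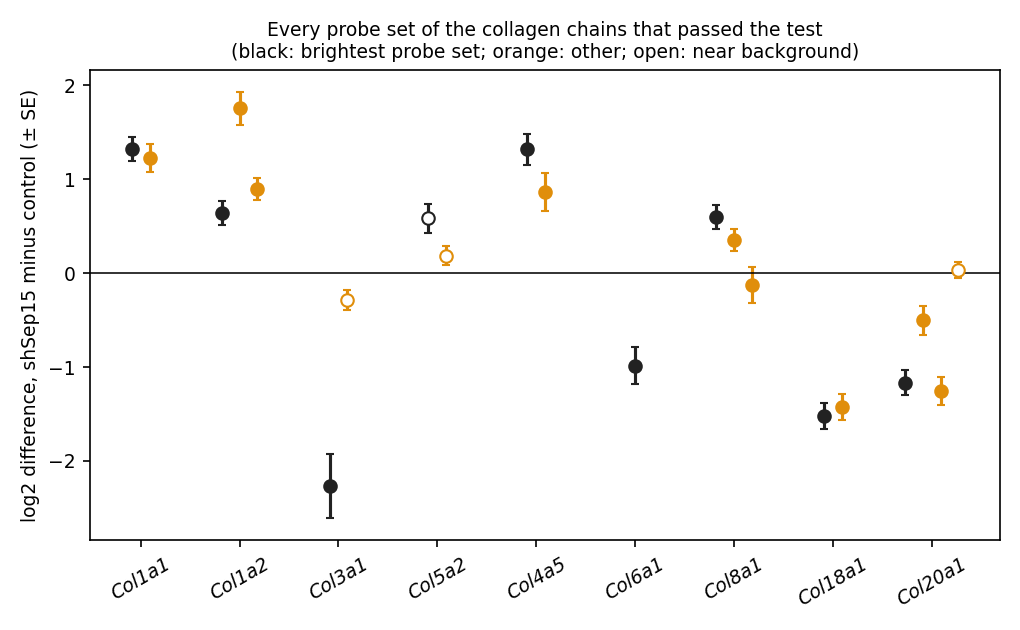
Log2 difference with its SE for every probe set of the 9 chains that passed the test. The probe set used for the gene is black, others are orange, and open circles are near background. Col1a1, Col1a2, Col4a5 and Col18a1 moved the same way on all their probe sets, though those of Col1a2 ranged from 0.64 to 1.76. Col8a1 and Col20a1 each had a probe set of the opposite sign, that of Col20a1 near background. Those of Col3a1 gave −2.27 and, near background, −0.29.

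Col18a1 encodes a heparan sulphate carrying collagen of basement membranes whose tail is released as endostatin. It read 7.66, 7.61 and 7.29 in control cells and 5.86, 6.09 and 6.04 in shSep15 cells. The groups are far apart, and the shSep15 arrays sit at the background level. The difference was −1.52 (SE 0.14, limma adjusted p = 7.68e-05), a 2.87-fold fall whose size is not exact because the shSep15 mean is just under background. The other probe set of Col18a1 fell by 1.43 (SE 0.14). Col15a1, the other member of its class, was near background.

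Col6a1 encodes a chain of the beaded microfilaments that lie beside cells. It read 7.91, 7.49 and 7.44 in control cells and 6.23, 6.89 and 6.76 in shSep15 cells, with replicate 1 of shSep15 the lowest. The difference was −0.99 (SE 0.20, limma adjusted p = 0.00635), a 1.98-fold fall. Its obligate partner Col6a2 read 7.20, 7.21 and 7.68 against 6.99, 7.24 and 7.11. The arrays of Col6a2 overlap, and the difference of −0.25 did not pass (95% confidence interval −0.61 to 0.10, limma adjusted p = 0.344). Another probe set of Col6a2 gave 0.01. Col6a1 changed by −0.73 relative to Col6a2, with no overlap (exact two-sided permutation p = 0.1, n = 3 each). Col6a3, Col6a4 and Col6a5 were near background.

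Col6a2, Col6a1 and Col18a1 lie in a row on chromosome 10. The 2 other measured genes of that stretch are the folate carrier Slc19a1 and the RNA-binding protein Pcbp3. Both were above background and neither passed the test. The genes of chromosome 10 above background had a median of −0.04.

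Col20a1 belongs to the collagens that attach to fibres and have interrupted helices (FACIT). It read 7.92, 7.56 and 7.81 in control cells and 6.43, 6.66 and 6.71 in shSep15 cells. There was no overlap. The difference was −1.16 (SE 0.14, limma adjusted p = 0.000345), a 2.24-fold fall. Of its other probe sets above background, 1 fell by 1.26 (SE 0.15), and 1 gave −0.50 and did not pass (SE 0.16, limma adjusted p = 0.0515). The mean over its probe sets fell by 0.72. Of the 9 chains of this class, 5 were above background, and Col20a1 was the 1 that passed. Col16a1 read 9.50, 9.48 and 9.53 against 9.48, 9.88 and 9.83, a difference of 0.23 (limma adjusted p = 0.253), which passed when shSep15 replicate 1 was left out (0.35, limma adjusted p = 0.0458). Col12a1, Col9a1 and Col9a3 differed by −0.03, 0.08 and −0.07.

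Col8a1 encodes a short chain that forms the lattice under the cornea's inner layer and occurs in vessel walls. It read 9.82, 9.47 and 9.42 in control cells and 10.27, 10.00 and 10.24 in shSep15 cells. The gap between the highest control array and the lowest shSep15 array was narrow. The difference was 0.60 (SE 0.13, limma adjusted p = 0.0101), a 1.51-fold rise. Its other probe sets above background did not pass, at 0.36 (limma adjusted p = 0.0699) and −0.13 (limma adjusted p = 0.739). The call of Col8a1 ended without shSep15 replicate 3 (0.56, limma adjusted p = 0.0521) and with the mean of its probe sets (0.28, limma adjusted p = 0.166). Its partner Col8a2 and the growth plate collagen Col10a1 were near background.

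Among the chains not yet described, Col7a1, the anchoring fibril of skin, was above background and differed by 0.10. The membrane-spanning Col25a1 was above background and differed by 0.35 (95% confidence interval 0.02 to 0.68, limma adjusted p = 0.146). Col13a1, Col17a1 and Col23a1, also of the membrane, were near background, as were Col14a1, Col19a1, Col22a1, Col9a2 and Col26a1. In all, 13 chains above background did not pass, with differences of −0.33 to 0.35. The 21 chains near background had differences of −0.26 to 0.58, the highest being that of Col5a2.

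The genes that process collagen rose more often than they fell. Of 34 listed genes that modify, fold, export, cleave or cross-link collagen, 30 were measured. Of these, 10 rose and 1 fell, or 36.7%, against 25.0% of all genes. Of the 22 above background, 11 were called, against 39.2% of all genes above background. The median difference of the 30 was 0.14, against 0.01 for all genes. That of the 22 was 0.205, against 0.01 for all genes above background. The count was 7 without control replicate 2 or without shSep15 replicate 2, which is set by the weaker calls of P4ha2, P4hb, Loxl3 and Loxl4.

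Grouped by role after the values were seen, 8 of 15 genes of chain modification rose and 0 fell by limma, against 12.2% and 12.8% of all genes. All 8 were among the 13 above background, where 19.2% of all genes rose and 20.0% fell. P3h4, which was lower (−0.21), and Ppib, which was higher (0.15), were the 2 others at an unadjusted p under 0.05. P4ha1, a catalytic subunit of the enzyme that hydroxylates prolines to stabilise the helix, read 8.67, 8.57 and 8.48 in control cells and 9.82, 10.03 and 9.81 in shSep15 cells. It rose by 1.31 (SE 0.11, limma adjusted p = 4.45e-05), with the arrays well apart. Its sister P4ha2 rose by 0.50 (limma adjusted p = 0.03) and their shared subunit P4hb by 0.16 (limma adjusted p = 0.0421). The call of P4ha2 was lost in 4 and that of P4hb in all 6 of the fits without 1 array.

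P3h1 and Crtap act in 1 complex that hydroxylates proline at another site. Crtap rose by 0.67 (SE 0.08, limma adjusted p = 0.000399). P3h1 rose by 0.79 (SE 0.11, limma adjusted p = 0.00082) on its brightest probe set and by 0.57 on the mean of its probe sets. Its other probe set, also above background, was not called higher. P3h1 lies on chromosome 4, whose genes above background had a median of 0.16. Ppib, the isomerase of the P3h1 and Crtap complex, was 0.15 higher and did not pass on its brightest probe set (limma adjusted p = 0.0754). Its other probe set, also above background, was called higher. Of the lysyl hydroxylases, Plod2, known to prepare chain ends for cross-links, rose by 0.85 (SE 0.14, limma adjusted p = 0.00204). Plod3, which also adds sugars, rose by 0.61 (SE 0.09, limma adjusted p = 0.000971). Plod1 differed by −0.04. Colgalt1, the galactosyltransferase of collagen, rose by 0.55 (SE 0.09, limma adjusted p = 0.00174).

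The genes of folding and export gave no call by limma among the 6 measured, and Fkbp14 and Sec23a were the 2 with an unadjusted p under 0.05. Serpinh1, the collagen chaperone HSP47, averaged 12.07 and 12.12 (difference 0.05, 95% confidence interval −0.10 to 0.21). Mia3, which loads collagen into transport carriers, differed by −0.20 (limma adjusted p = 0.183). Among 9 genes of cleavage and cross-linking, Pcolce, the enhancer of the enzyme that trims the tail of fibrillar chains, rose by 0.45 (SE 0.05, limma adjusted p = 0.000271). Bmp1, that enzyme, differed by 0.12 and did not pass. The lysyl oxidase Loxl3 rose by 0.55 (limma adjusted p = 0.027) and Loxl4 fell by 0.30 (limma adjusted p = 0.0345). Loxl3 lost its call without control 1 or 2 or shSep15 2 or 3, and Loxl4 without any 1 array. Lox and Loxl1 were near background.

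**Figure D4:**
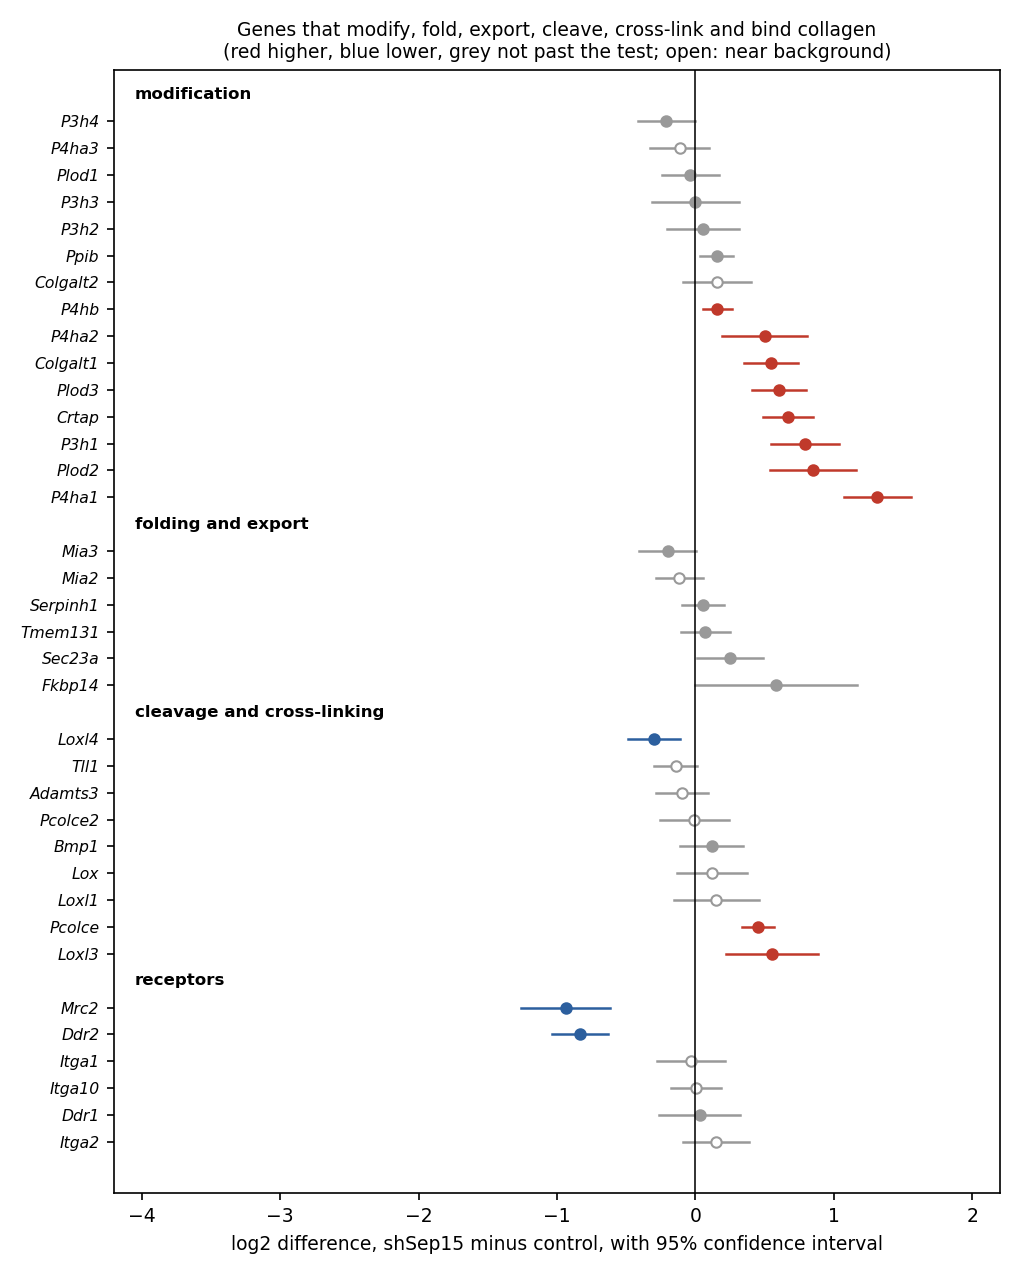
Log2 difference with its 95% confidence interval for the 30 measured genes of collagen processing and 6 receptors, by role. Red was called higher, blue lower, and open circles are near background. P4ha1 lies highest at 1.31, and the receptors Ddr2 and Mrc2 lie lowest.

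Of 7 listed receptors that bind collagen, 6 were measured and 3 were above background. Of these 3, Ddr2 and Mrc2 fell, where 20.0% of all genes above background did. Ddr2, a receptor kinase for fibrillar collagen, read 11.23, 10.94 and 11.10 in control cells and 10.20, 10.30 and 10.26 in shSep15 cells. The arrays are well apart, and the difference was −0.83 (SE 0.09, limma adjusted p = 0.000215). Mrc2, which takes up collagen fragments, fell by 0.94 (SE 0.14, limma adjusted p = 0.00148) on its brightest probe set and by 0.48 on the mean of its probe sets. Ddr1 differed by 0.03. The collagen-binding integrin chains Itga1, Itga2 and Itga10 were near background.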

How the data were processed

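Transcripts were measured in 6 samples of CT26 cells, 3 control and 3 shSep15, each on 1 Affymetrix Mouse430_2 array. The deposited values are log2 signals made by the authors with RMA (background correction, normalization between arrays and summary per probe set), as named in the submitters' processing notes; the version of RMA is not given in the sources used here. RMA compresses differences of dim probe sets. Groups came from the sample titles. The series names separate mRNA samples but not separate cultures, so p-values measure the spread between these samples, which may be technical.

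Of 45101 probe sets, 64 array controls were left out and 45037 were fitted with limma 3.58.1 in R 4.3.3 (group as the only term, eBayes with trend). Two-sided p-values were adjusted (Benjamini-Hochberg) over all of them, with calls at 0.05; confidence intervals are at 95% and not adjusted. A gene's value was its single-symbol probe set with the highest mean. Array symbols were updated by gene identifier through RefSeq (GRCm38.p6, 34741 of 34945 matched). The fit was run on simulated data with independent noise for each probe set. That run cannot speak for noise or shifts shared between probe sets. The titles number the replicates but name no pairs. Deviations correlated by 0.39, −0.20 and −0.05 between arrays of the same number, and by −0.385 to 0.429 otherwise. Whether the numbers pair the arrays is thus not settled. Every chain past the test is named with each array's value; the members, lists and tests were chosen with earlier results of these data known, and the chain pairs after the values were seen. Of the listed genes, Fkbp10, Adamts2, Adamts14, Loxl2 and Itga11 were not analysed here.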

Additional observations from a re-analysis of the deposited data

How the results depend on the processing

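The 4 calls of lower chains above background (Col3a1, Col18a1, Col20a1 and Col6a1) and those of Col1a1, Col1a2 and Col4a5 held in all 14 alternatives run on them. These changed the variance prior, the normalization, the probe sets tested or averaged or the threshold, used a replicate block, or left out 1 array. Leaving out 1 array gave 3 to 6 higher chains, 4 to 5 lower chains and 7 to 9 processing genes called, against 5, 4 and 11. At an adjusted p of 0.01, 3 chains were higher, 7 processing genes and 5557 probe sets were called, against 8722 at 0.05. Without chains on chromosomes 3, 4, 17, 18 and X, a choice made after seeing the data, 4 were higher and 4 lower. Of the called chains only Col4a5, on X, lies on these chromosomes, so no other call could be lost. That count does not test the shifts of these chromosomes. With the replicate block the same 9 chains were called (5 higher and 4 lower), and 9052 probe sets. Whether the replicate numbers stand for real pairs is not known. The signs of chains near 0 turned for Col4a1 with the mean of its probe sets (−0.02) and for Col4a6 without shSep15 replicate 2 (−0.05; up to 0.19 without another array). The difference of Selenof was −1.47 with the mean of its probe sets, 1 of which is near background. Of the 404 single-gene values recomputed, 363 kept direction and side of the threshold, 38 lost the call, 1 gained it and 2 turned sign. Signal over background limits 21 of the 42 chains, for which a change of RNA cannot be read.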
